A study of Mus musculus with 15 samples.

Results

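Bergmann glia are the radial astrocytes of the cerebellum, whose cell bodies lie among the Purkinje cells and whose processes cross the molecular layer to the surface. They guide migrating granule neurons during development and clear glutamate at Purkinje cell synapses in the adult. Sonic hedgehog, a signal released by Purkinje cells, acts on them and switches on the transcription factor Gli1. The genes described here are Gdf10, Hopx, Septin4, Fabp7, Mybpc1, Ednrb, Cnpy1 and Npy2r, 8 of the 18193 genes measured. They were taken as a list of markers of these cells, by gene symbol, and each gene was read from its brightest probe set, by the mean of all 15 arrays. The list was chosen by these genes' signal in cerebellum relative to the other regions, so their differences from cerebellum are given as a description, with no p-value.

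The arrays hold RNA of astroglia from 3 brain regions, the subventricular zone (SVZ, the wall of the lateral ventricle), hippocampus and cerebellum, with 5 arrays a region. All mice were males aged 6 to 8 weeks with the genotype Gli1-CreER;GFAP-GFP;R26tdTomato. They received tamoxifen as 2 x 10 mg, and the tissue was taken 3 weeks later. The series design set SVZ and hippocampus each against cerebellum and looked for genes past a 4-fold change with an unadjusted p below 0.01. Gli1-CreER makes tdTomato permanent in cells that used Gli1 at the time of tamoxifen, and GFAP-GFP marks cells in which the Gfap promoter is active, so the sort took cells positive for both and not a cell type as such. Each array pooled the cells of 10 to 12 mice, no array shows a single animal, and the labels do not tie a pool of one region to a pool of another. p-values measure the spread between these pools.

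Values are log2 signals as deposited after RMA normalization. The log base was read from the range of the values, and the array medians were low for RMA, 1.20 to 1.31 in SVZ, 1.20 to 1.27 in hippocampus and 1.12 to 1.17 in cerebellum. A further scaling step would alter the size of every difference. No detection calls were used, and a value at or below its array's median is treated here as having no firm level. Poly-A spike-in probe sets read 11.1 to 13.2 in SVZ, 11.5 to 12.9 in hippocampus and 8.50 to 12.4 in cerebellum, and a fit with their level as a covariate is given beside the genes it moved. Arrays of cerebellum varied less among themselves: the SD of a gene with a mean above 3 was typically (median of 4816 genes) 1.00 for SVZ, 1.00 for hippocampus and 0.481 for cerebellum. The 12 general astrocyte genes averaged 7.99 to 8.53 in SVZ, 7.51 to 8.78 in hippocampus and 8.25 to 9.48 in cerebellum. Of these 12, 11 stayed above 3 on all SVZ arrays, 12 on all hippocampus arrays and 12 on all cerebellum arrays. The exception in SVZ was Gfap, at 2.69 on its lowest array. Gfap averaged 4.51 in SVZ, 6.93 in hippocampus and 4.99 in cerebellum. Its SVZ minus hippocampus difference was -2.42 ± 0.59, without overlap, as for 0.44% of all genes lower in SVZ. It had an unadjusted p of 0.00114 and an adjusted p of 0.364 in limma, past the threshold of the series design. The brightest of the 12, Gja1 and Glul, averaged 11.48 and 11.21 in SVZ, 11.06 and 10.91 in hippocampus, and 11.08 and 10.29 in cerebellum. S100b averaged 6.31, 6.04 and 9.72 in these regions, and Slc1a3 9.96, 9.64 and 11.80. Of the 12, 2 were lower and 1 higher in SVZ than in cerebellum at an adjusted p under 0.05 in limma. In hippocampus 3 were lower and 0 higher. Of all genes 4.47% were lower and 1.03% higher in SVZ, and 3.97% and 0.808% in hippocampus. In RNA of a pool of cells, fewer cells of a type and less RNA per cell cannot be told apart.

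The means of 7 of the 8 genes were lower than in cerebellum in SVZ and in hippocampus alike, Npy2r being the exception. The arrays did not overlap with cerebellum for 6 genes in SVZ, Gdf10, Hopx, Septin4, Fabp7, Mybpc1 and Cnpy1, and for these and Ednrb, 7 in all, in hippocampus, as for 6.02% and 5.3% of all genes. Nothing is read from these counts, since the cerebellum values helped to choose the genes. The 8 genes had a median difference of -5.02 for SVZ and -4.06 for hippocampus, beside 0.07 over all genes for each. Centring each array on its median shifted all genes by -0.10 and -0.11.

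**Figure D1:**
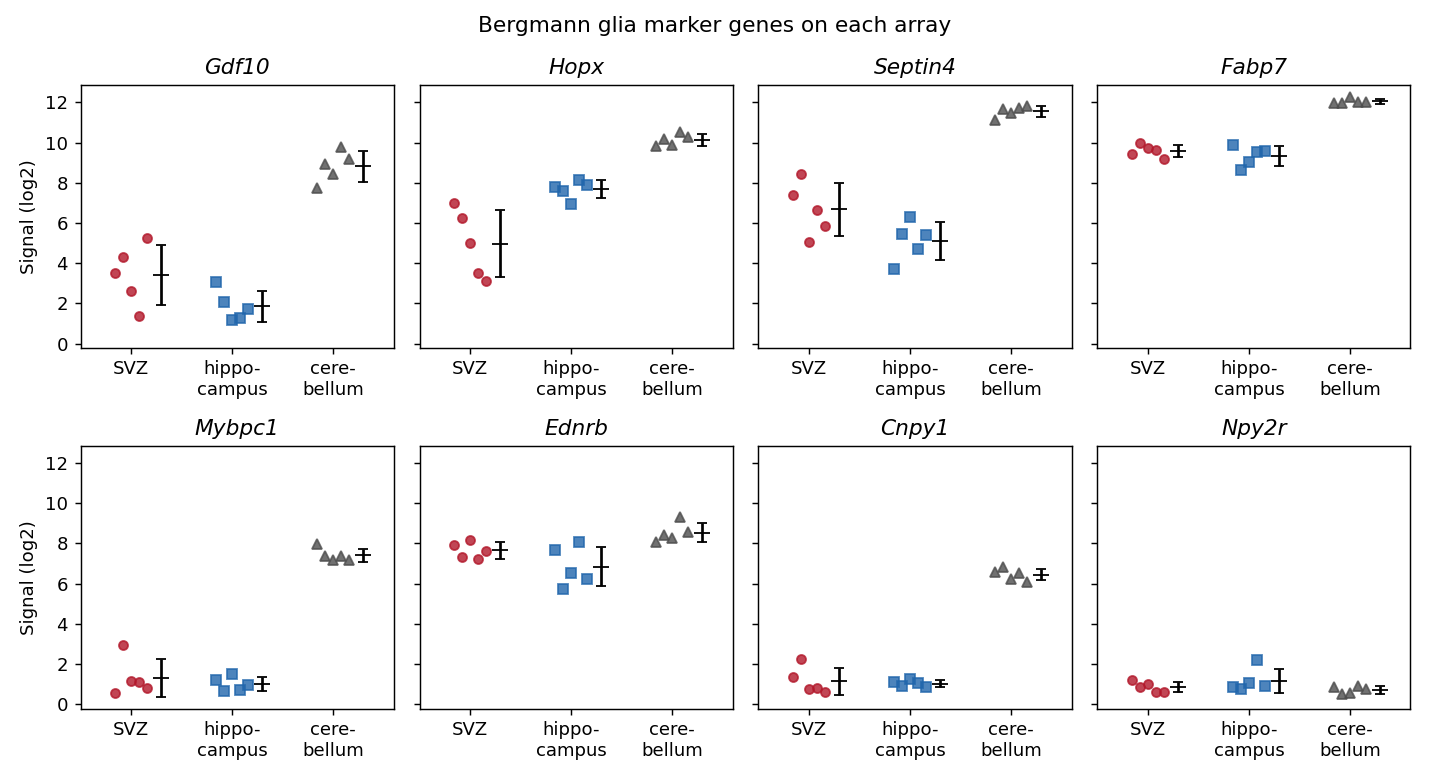
Log2 signal of the 8 genes on each array, by region (SVZ, hippocampus, cerebellum). Points are arrays, in array order within a region, and the black mark is the mean with the SD of 5 arrays. Gdf10, Hopx, Septin4, Fabp7, Mybpc1 and Cnpy1 lie apart from the other regions in cerebellum, and Npy2r is low throughout. Ednrb is bright in all regions, with SVZ reaching into the cerebellum range and hippocampus just below it.

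Gdf10 encodes a secreted ligand of the transforming growth factor beta superfamily, close to the bone morphogenetic proteins. It read 3.51, 4.31, 2.64, 1.36 and 5.25 on SVZ arrays 1 to 5, 3.05, 2.08, 1.18, 1.27 and 1.70 on hippocampus arrays 1 to 5, and 7.73, 8.92, 8.42, 9.80 and 9.18 on cerebellum arrays 1 to 5. All cerebellum arrays were above all others, while SVZ arrays ran through the hippocampus range and beyond its upper end, and SVZ 3 and SVZ 4 stood within it. The fitted difference from cerebellum was -5.40 ± 0.63 (standard error) in SVZ, a 42.1-fold lower signal, and -6.95 ± 0.63 in hippocampus. On 2 of 5 hippocampus arrays Gdf10 was at or below the array median, so no firm fold is given there. With the spike-in level as a covariate the differences were -4.37 and -5.99. SVZ averaged 3.41 ± 1.5 and hippocampus 1.86 ± 0.76 (SD, n = 5 arrays each), a difference of 1.56 with a 95% interval of 0.20 to 2.91 that did not pass after adjustment over all genes (adjusted p = 0.644, limma). The means therefore stand in the order cerebellum, SVZ, hippocampus, and the last pair overlap. Its promoter is shown as the one richest in G and C among the 13 promoters of the 8 genes (77.3%, against a median of 52.7% over 32851 RefSeq promoters, GRCm38.p6), chr14:33923337-33923636, plus strand. Each promoter runs 5′ to 3′ from 250 bases before to 50 after the start, and capitals mark the 4 matches to the GC box GGGCGG on either strand, the last pair of which share a base.
Gdf10: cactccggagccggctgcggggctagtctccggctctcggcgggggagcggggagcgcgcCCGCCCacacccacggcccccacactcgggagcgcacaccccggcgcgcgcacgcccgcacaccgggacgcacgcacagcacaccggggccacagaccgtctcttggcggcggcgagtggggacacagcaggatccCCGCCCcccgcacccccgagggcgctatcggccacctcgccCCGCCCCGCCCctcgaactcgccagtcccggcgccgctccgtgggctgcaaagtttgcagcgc

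Ednrb encodes the endothelin B receptor, a G protein-coupled receptor that astrocytes carry widely. It read 7.92, 7.31, 8.19, 7.24 and 7.61 on SVZ arrays 1 to 5, 7.67, 5.75, 6.54, 8.07 and 6.22 on hippocampus arrays, and 8.08, 8.42, 8.25, 9.30 and 8.59 on cerebellum arrays. SVZ 3 reached into the cerebellum range, and the highest hippocampus array lay just below the lowest cerebellum array. The differences from cerebellum were -0.87 ± 0.40 in SVZ, 1.83 times lower, and -1.68 ± 0.40 in hippocampus, 3.20 times lower. SVZ exceeded hippocampus by 0.80 ± 0.40, with an interval of -0.06 to 1.67 (adjusted p = 0.709, limma). This receptor was thus well measured in every region and had the smallest differences from cerebellum among the 7 genes that were negative.

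Npy2r encodes the Y2 receptor for neuropeptide Y, best known on nerve endings. It read 1.22, 0.88, 0.99, 0.62 and 0.59 on SVZ arrays 1 to 5, 0.85, 0.75, 1.04, 2.21 and 0.89 on hippocampus arrays, and 0.87, 0.52, 0.54, 0.92 and 0.75 on cerebellum arrays. All SVZ and cerebellum arrays and 4 of 5 hippocampus arrays were at or below their array's median, so the probe set gave no firm level in any region and does not bear out the marker label. Against cerebellum it differed by 0.14 ± 0.25 in SVZ and by 0.43 ± 0.25 in hippocampus. SVZ differed from hippocampus by -0.29 ± 0.25 (adjusted p = 0.806, limma). Its platform annotation offered 1 probe set only.

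Hopx encodes a small homeodomain protein that does not bind DNA itself and acts through partner proteins, and it also marks quiescent radial cells of the adult hippocampus. It read 7.01, 6.24, 4.98, 3.53 and 3.12 on SVZ arrays 1 to 5, 7.80, 7.60, 6.95, 8.15 and 7.89 on hippocampus arrays, and 9.81, 10.16, 9.86, 10.53 and 10.29 on cerebellum arrays. Cerebellum lay above hippocampus on every array, and hippocampus lay above SVZ except that SVZ 1 exceeded hippocampus 3. The differences from cerebellum were -5.15 ± 0.60 in SVZ, 35.6 times lower, and -2.45 ± 0.60 in hippocampus, 5.47 times lower. With the spike-in covariate they were -4.49 and -1.82. SVZ averaged 4.98 ± 1.68 and hippocampus 7.68 ± 0.45, so SVZ was 6.51 times lower, with a difference of -2.70 ± 0.60 and an interval of -3.99 to -1.41. That contrast had an unadjusted p of 0.000514 and an adjusted p of 0.311 in limma, and it passed the threshold of the series design, which 0.198% of all genes passed in that direction. Without SVZ 1 the difference was -3.21 with an adjusted p of 0.0499, and over all settings the adjusted p ran from 0.0499 to 0.954. The upstream start of Hopx, chr5:77115074-77115373 on the minus strand, holds the only match to a CArG box (the serum response element) in the 13 promoters of the 8 genes, in capitals.
Hopx: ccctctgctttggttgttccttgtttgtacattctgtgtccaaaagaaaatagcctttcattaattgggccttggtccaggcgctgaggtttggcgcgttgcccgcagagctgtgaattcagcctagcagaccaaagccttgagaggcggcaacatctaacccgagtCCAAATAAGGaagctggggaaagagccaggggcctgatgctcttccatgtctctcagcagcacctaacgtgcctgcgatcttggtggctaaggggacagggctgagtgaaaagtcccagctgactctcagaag

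The mean of the 10 microglia genes ran opposite to Hopx. It was 3.56, 5.01, 6.54, 5.45 and 7.24 on SVZ arrays 1 to 5, 3.90, 4.81, 5.87, 3.28 and 4.22 on hippocampus arrays, and 2.80, 2.08, 3.33, 1.43 and 2.54 on cerebellum arrays. The order of the arrays was nearly the reverse of that of Hopx within SVZ, within hippocampus and within cerebellum. Within hippocampus the 4 arrays other than number 5 ran in exactly the reverse order, and within SVZ array 4 stood apart. Within cerebellum arrays 2 and 5 were exchanged, as were arrays 1 and 3. Laptm5 and Csf1r, the brightest of the list, averaged 9.09 and 8.88 in SVZ, 7.90 and 7.76 in hippocampus, and 4.18 and 3.54 in cerebellum. Of the 10 microglia genes, 4 passed as higher in SVZ and 2 in hippocampus against cerebellum, beside 1.03% and 0.808% of all genes. P2ry12 differed by -0.02 in SVZ and 0.44 in hippocampus. Others of the 8 genes did not all run as Hopx did. On SVZ 5, where the microglia mean was highest in SVZ, Gdf10 was at its highest there (5.25) and Fabp7 at its lowest (9.18). On hippocampus 3, where the microglia mean was highest in hippocampus, Septin4 was at its highest there (6.28) and Gdf10 at its lowest (1.18). The part of the microglia genes' cells in the Hopx values was not tested.

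**Figure D2:**
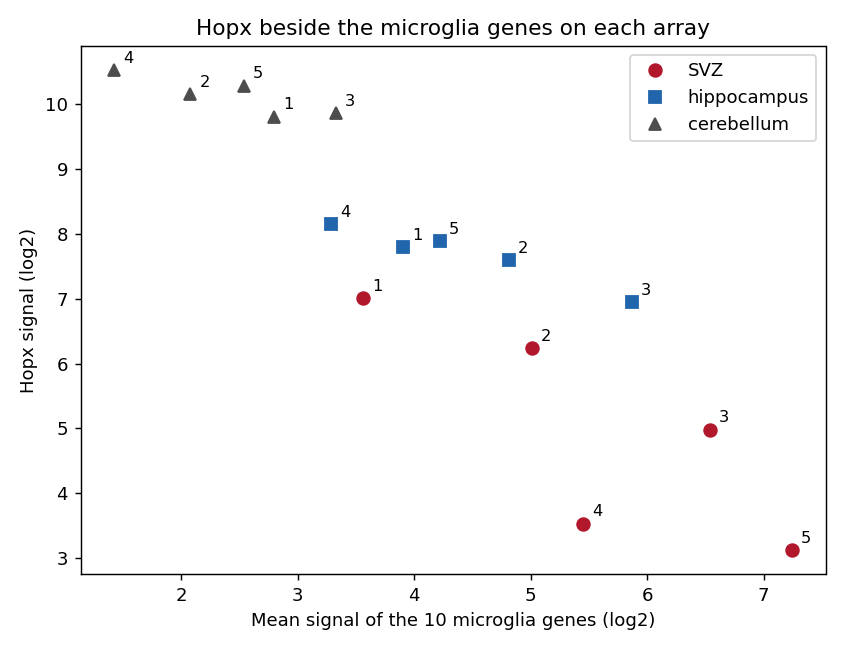
Hopx signal (log2, vertical axis) against the mean signal of the 10 microglia genes (log2, horizontal axis) on each array, numbered by array within its region. SVZ arrays run from 7.01 to 3.12 in Hopx as the microglia mean runs from 3.56 to 7.24, with array 4 lower than its neighbours, and cerebellum arrays lie at the upper left.

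Fabp7 encodes the brain lipid-binding protein, a fatty acid carrier of radial glia and astrocytes. It read 9.42, 9.99, 9.74, 9.61 and 9.18 on SVZ arrays 1 to 5, 9.90, 8.65, 9.05, 9.53 and 9.59 on hippocampus arrays, and 11.95, 11.98, 12.27, 12.01 and 12.03 on cerebellum arrays. The cerebellum arrays lay above all others in a band of SD 0.13, and SVZ and hippocampus overlapped. The differences from cerebellum were -2.46 ± 0.22 in SVZ, 5.50 times lower, and -2.70 ± 0.22 in hippocampus, 6.52 times lower. With quantile normalization they were -1.86 and -2.10. SVZ differed from hippocampus by 0.24, with an interval of -0.23 to 0.72 (adjusted p = 0.818, limma). Unlike the genes near the array median in SVZ and hippocampus, Fabp7 was bright in all regions. Its promoter, chr10:57784673-57784972 on the plus strand, is shown for the single match to the RBPJ motif TGGGAA (the DNA partner of Notch) among the 13 promoters, at its 5′ end on the reverse strand.
Fabp7: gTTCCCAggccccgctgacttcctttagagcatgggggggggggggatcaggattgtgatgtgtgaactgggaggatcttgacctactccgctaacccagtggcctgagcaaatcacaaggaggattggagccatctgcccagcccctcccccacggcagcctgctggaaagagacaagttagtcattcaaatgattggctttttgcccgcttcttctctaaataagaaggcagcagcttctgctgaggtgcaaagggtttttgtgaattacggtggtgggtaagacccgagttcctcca

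Septin4 encodes a GTP-binding protein that forms cytoskeletal filaments. It read 7.39, 8.41, 5.07, 6.66 and 5.84 on SVZ arrays 1 to 5, 3.72, 5.44, 6.28, 4.69 and 5.41 on hippocampus arrays, and 11.13, 11.66, 11.48, 11.73 and 11.82 on cerebellum arrays. Cerebellum stood clear of both other regions, which overlapped. The differences were -4.89 ± 0.56 in SVZ, 29.7 times lower, and -6.46 ± 0.56 in hippocampus, 87.8 times lower. With the spike-in covariate they were -4.05 and -5.66, and with quantile normalization the hippocampus difference was -5.82. SVZ exceeded hippocampus by 1.57 with an interval of 0.36 to 2.77, at an unadjusted p of 0.0145 and an adjusted p of 0.563 in limma.

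Mybpc1 encodes a myosin-binding protein of slow skeletal muscle. It read 0.58, 2.94, 1.18, 1.11 and 0.79 on SVZ arrays 1 to 5, 1.22, 0.68, 1.5, 0.73 and 0.96 on hippocampus arrays, and 7.95, 7.39, 7.20, 7.38 and 7.16 on cerebellum arrays. It was at or below the array median on 4 of 5 SVZ and 4 of 5 hippocampus arrays, and SVZ 2 alone stood out above the other SVZ arrays. The differences from cerebellum were -6.10 ± 0.37 in SVZ and -6.40 ± 0.37 in hippocampus. With so low a level in SVZ and hippocampus, no firm fold is given. SVZ differed from hippocampus by 0.30 ± 0.37 (adjusted p = 0.863, limma), and without SVZ 2 by -0.10. Its promoter, chr10:88605103-88605402 on the minus strand, is shown because it is 46.7% G and C and holds none of the motifs searched. A Septin4 promoter, at 42.3% G and C, also holds none, as do the Ednrb promoter and a promoter each of Hopx and Cnpy1.
Mybpc1: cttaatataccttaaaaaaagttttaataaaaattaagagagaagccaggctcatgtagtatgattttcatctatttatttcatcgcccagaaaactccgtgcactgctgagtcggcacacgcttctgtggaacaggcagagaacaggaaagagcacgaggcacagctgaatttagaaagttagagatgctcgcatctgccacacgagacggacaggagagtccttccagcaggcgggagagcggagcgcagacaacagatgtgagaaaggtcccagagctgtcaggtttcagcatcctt

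Cnpy1 belongs to the canopy family of endoplasmic reticulum proteins, and its zebrafish counterpart takes part in fibroblast growth factor signalling at the boundary of midbrain and hindbrain. It read 1.36, 2.25, 0.78, 0.80 and 0.61 on SVZ arrays 1 to 5, 1.13, 0.91, 1.24, 1.04 and 0.84 on hippocampus arrays, and 6.59, 6.82, 6.25, 6.55 and 6.07 on cerebellum arrays. On 3 SVZ arrays and all 5 hippocampus arrays it was at or below the array median, and cerebellum was far above both. The differences were -5.30 ± 0.27 in SVZ and -5.42 ± 0.27 in hippocampus, again with no firm fold, and with the mean of its probe sets they were -3.59 and -3.74. SVZ differed from hippocampus by 0.13 with an interval of -0.45 to 0.71 (adjusted p = 0.924, limma), and by -0.14 without SVZ 2. SVZ 2 had the highest SVZ reading of Mybpc1, Cnpy1, Septin4 and Fabp7, and its spike-in probe sets read 11.1, against 12.9 to 13.2 on the other SVZ arrays. With the spike-in covariate SVZ differed from hippocampus by 0.31 for Mybpc1 and 0.14 for Cnpy1, close to the values without it. The further probe sets of Mybpc1 and Cnpy1 did not repeat the high reading, while that of Septin4 did, at 9.11. Those of Mybpc1 read 1.32 and 1.17 on SVZ 2 and 2.32 and 2.82 on SVZ 1, and those of Cnpy1 were highest on SVZ 5 and SVZ 3.

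**Figure D3:**
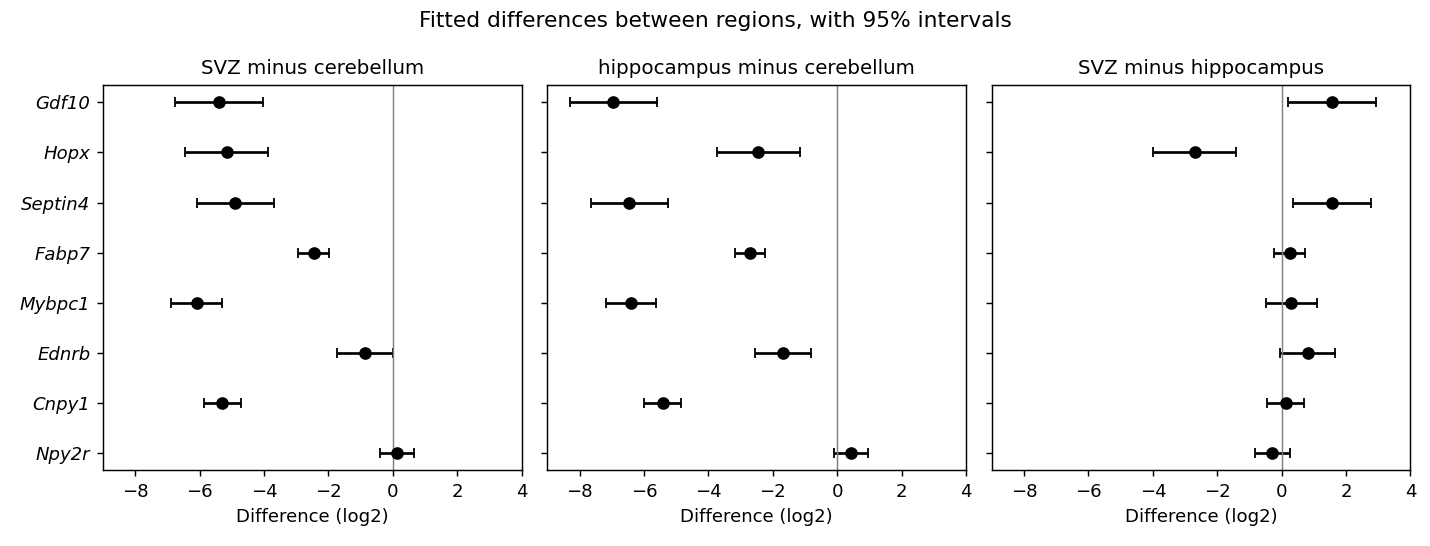
Fitted log2 differences of the 8 genes with 95% intervals, for SVZ minus cerebellum, hippocampus minus cerebellum and SVZ minus hippocampus. The cerebellum differences of 7 genes lie below 0 in both panels, and between SVZ and hippocampus Hopx lies at -2.70 and the other genes between -0.29 and 1.57.

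Between SVZ and hippocampus 0 of the 8 genes passed at an adjusted p under 0.05 in limma, where 1 gene of all was lower (0.0055%) and 3 were higher (0.0165%). At an unadjusted p under 0.05, 3 of 8 passed, Gdf10 and Septin4 higher and Hopx lower in SVZ, beside 7.02% of all genes. All 8 genes overlapped between these regions. Mybpc1, Cnpy1, Fabp7 and Npy2r had intervals that included 0, as did Ednrb, and a p that misses the threshold does not show equal levels.

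Further probe sets were available for 5 genes, 8 probe sets in addition to the 8 used. All 8 had the same sign as the probe set used in each comparison, which for cerebellum is a description of the values that chose the genes. For Hopx the further probe set differed by -5.21 ± 0.51 in SVZ and -2.96 ± 0.51 in hippocampus. It read 5.34, 4.98, 2.89, 2.11 and 3.14 on SVZ arrays 1 to 5 and 5.95, 6.29, 5.64, 6.37 and 5.45 on hippocampus arrays, which did not overlap; of the probe sets used, 0.44% of all genes were lower in SVZ without overlap. Its SVZ minus hippocampus difference was -2.25 ± 0.51 (adjusted p = 0.382 over all probe sets, limma). Of the further probe sets of Ednrb, one differed by -0.34 and another by -1.13 in SVZ, against -0.87 for the one used. Their SVZ minus hippocampus differences were 1.29 and 0.62, against 0.80 for the one used. The unadjusted p was 0.00765 and 0.0449, and the adjusted p over all probe sets 0.574 and 0.739, in limma. One further probe set of Cnpy1 showed only -0.96 in SVZ and -1.11 in hippocampus, with 1.56 to 2.56 in cerebellum.

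**Figure D4:**
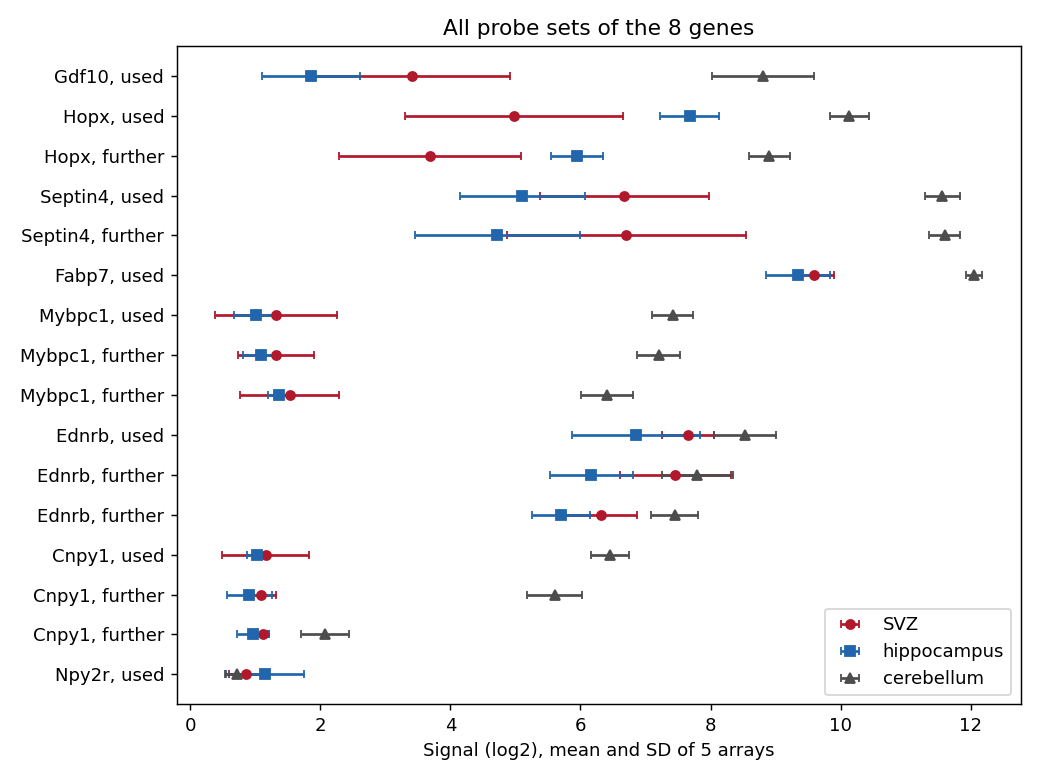
Mean and SD of 5 arrays per region for every probe set of the 8 genes (log2 signal, horizontal axis), with the probe set used and further ones. Mybpc1 gives similar differences from all its probe sets, while 1 further probe set of Cnpy1 is low in every region.

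The promoters of all 8 genes were matched in RefSeq, 13 in number. The GC box was found in 6 of 13, belonging to 4 of the 8 genes. Overlapping windows of Septin4 hold the same GC box matches, so these matches are counted more than once. The RBPJ motif was found in 1, the CArG box in 1, and the GLI core motif ACCACCC and the TATA box TATAAA in none. Of all 32851 promoters these 5 motifs, in the order given, were found in 35.7%, 25.6%, 1.63%, 4.61% and 13.6%. Both strands were searched. A match is a description and no match says only that those letters are not in the window.

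Other genes known in Bergmann glia or cerebellar astrocytes were set beside the list, and they too were chosen with earlier results known, so their direction is no independent evidence. Of 18 measured, 10 were lower and 1 higher in SVZ than in cerebellum, and 12 were lower and 0 higher in hippocampus, with median differences of -1.75 and -1.99. Of all genes 4.47% were lower and 1.03% higher in SVZ, and 3.97% and 0.808% in hippocampus, at the same adjusted p under 0.05. Aqp4, Glul, S100b, Slc1a3 and Sox9 are also among the general astrocyte genes. The calls of S100b, Slc1a3 and Glul are therefore counted in both lists. With quantile normalization the calls over all genes were 364 lower and 221 higher in SVZ, against 814 and 188 as deposited, and 314 and 155 in hippocampus, against 722 and 147. Lower in SVZ were 4 with the spike-in level as a covariate and 5 without cerebellum 4 and 5, and in hippocampus 5 with the covariate. Gria4 and Gria1, subunits of AMPA glutamate receptors, differed by -7.26 ± 0.69 (adjusted p = 2.5e-05) and -4.59 ± 0.95 (adjusted p = 0.0117) in SVZ. In hippocampus they differed by -7.48 ± 0.69 and -6.31 ± 0.95. Gria4 ran from 0.99 to 5.47 and Gria1 from 0.92 to 7.68 in SVZ. Their lowest SVZ readings were below every SVZ array median, so these differences have no firm size. A2m, a protease inhibitor, differed by -5.57 ± 0.62 in SVZ and -5.15 ± 0.62 in hippocampus. Vim, the intermediate filament vimentin, differed by -3.61 ± 0.74 in SVZ and -5.14 ± 0.74 in hippocampus. Tnc, a matrix glycoprotein, differed by -3.57 ± 0.67 in SVZ and -3.75 ± 0.67 in hippocampus, and S100b, a calcium-binding protein, by -3.41 ± 0.42 and -3.67 ± 0.42. Timp4, Wif1, Slc1a3 and Ptch1 were lower by -2.42, -1.86, -1.83 and -1.66 in SVZ and by -2.84, -1.80, -2.16 and -1.82 in hippocampus. Wif1 read at most 1.06 in SVZ and 1.16 in hippocampus, below the array medians, so it had no firm level there. It averaged 2.71 in cerebellum. Slc1a3 takes up glutamate, Timp4 inhibits metalloproteinases, Wif1 inhibits Wnt ligands and Ptch1 is the receptor for Sonic hedgehog. Itih3 (-1.15, adjusted p = 0.0427) and the potassium channel Kcnj10 (-1.59, adjusted p = 0.0256) were lower in hippocampus only at this threshold; the difference between SVZ and hippocampus gave adjusted p values of 0.451 and 0.846. Glul, glutamine synthetase, was higher in SVZ by 0.92 ± 0.22 (adjusted p = 0.0279), a call lost under 5 settings given at the end and without SVZ 2 or 4 or cerebellum 1, 3 or 5. Aqp4, Etv4, Etv5, Sox2 and Sox9 passed in neither region, and Adra1a was not named by the annotation used.

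**Figure D5:**
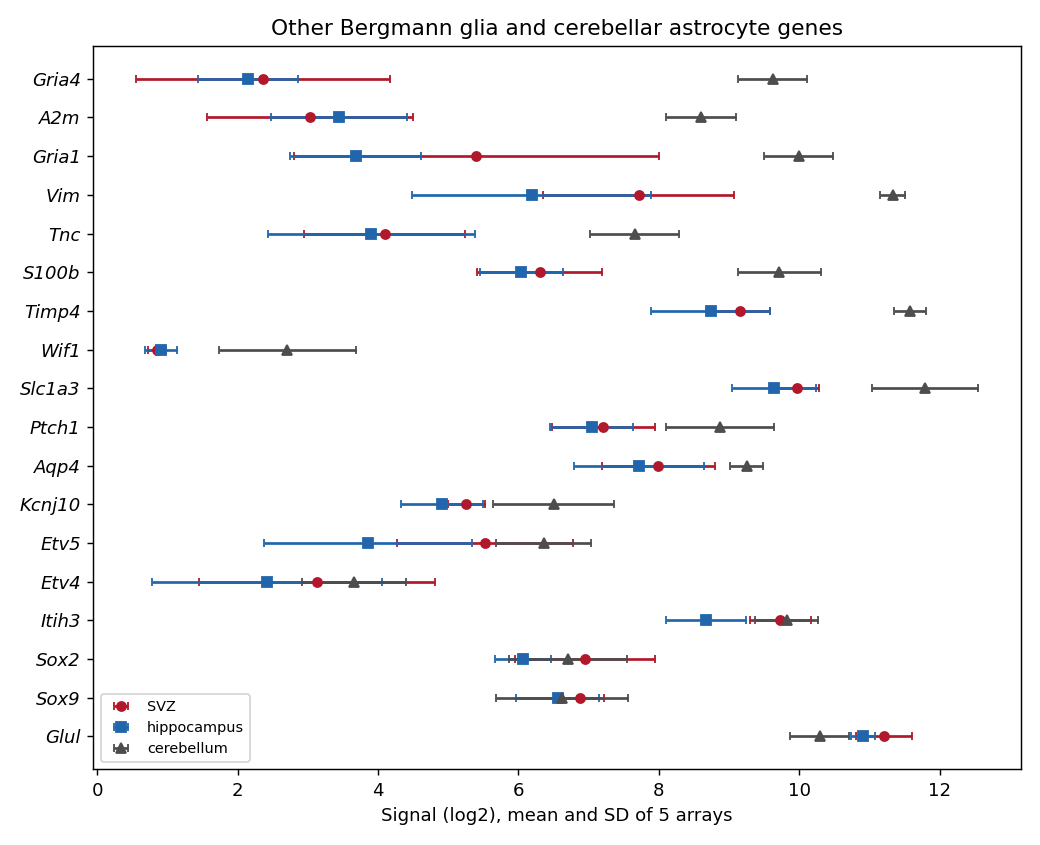
Mean and SD of 5 arrays per region (log2 signal, horizontal axis) of 18 other genes of Bergmann glia or cerebellar astrocytes, ordered by their difference. Gria4, A2m and Gria1 lie farthest apart between cerebellum and the other regions, and Glul is higher in SVZ.

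Of the 20 measured relatives of the 8 genes, 3 were lower and 1 higher in each region against cerebellum. Over all genes 4.47% were lower and 1.03% higher in SVZ, and 3.97% and 0.808% in hippocampus. Septin2 and Septin7, partners of the septin filament, differed by -1.5 ± 0.24 and -1.95 ± 0.28 in SVZ and by -1.63 ± 0.24 and -2.19 ± 0.28 in hippocampus. Septin10 was lower in SVZ (-2.74) and Septin8 in hippocampus (-3.26). The lowest SVZ reading of Septin10, 1.15, was below every SVZ array median. Fabp5, another fatty acid carrier, was higher by 1.34 in SVZ and 1.33 in hippocampus. Of 20 ligands and partners, Npy, the ligand of the Y2 receptor, differed by -4.08 ± 0.38 in SVZ and -4.74 ± 0.38 in hippocampus. Npy averaged 1.92 in SVZ, 1.27 in hippocampus and 6.01 in cerebellum, so its level outside cerebellum was low and not firm. Smad3, which carries signals of activin and transforming growth factor beta receptors, differed by -3.59 ± 0.69 and -4.42 ± 0.69. Its lowest readings, 1.17 in SVZ and 0.96 in hippocampus, were below all array medians of those regions. Ece1, the enzyme that matures endothelin, was higher by 3.48 ± 0.40 in SVZ and 1.84 ± 0.40 in hippocampus. The other ligands and partners did not pass.

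Markers of cerebellar neurons were set beside the cerebellum values. The counts below stand beside 4.47% of all genes lower and 1.03% higher in SVZ, and 3.97% and 0.808% in hippocampus. The 6 measured Purkinje cell genes averaged 1.36 to 2.56 in SVZ, 1.37 to 2.48 in hippocampus and 2.90 to 4.33 in cerebellum, and 4 passed as lower in SVZ and 3 in hippocampus. Pvalb averaged 1.67 in SVZ, 1.41 in hippocampus and 5.78 in cerebellum, and Pcp4 2.92, 5.78 and 7.09. Calb1 and Pcp2 averaged 2.61 and 3.21 in cerebellum. Car8 averaged 2.84 in SVZ, 1.79 in hippocampus and 2.24 in cerebellum, and Slc1a6 1.17, 1.17 and 0.96. The 7 granule neuron genes averaged 0.93 to 2.04 in SVZ, 1.18 to 2.53 in hippocampus and 2.42 to 3.12 in cerebellum, and 1 passed as lower in SVZ and 0 in hippocampus in limma, where 1 had an unadjusted p under 0.05. Their brightest, Zic1 and Pax6, averaged 2.92 and 2.64 in SVZ, 3.85 and 5.96 in hippocampus, and 8.01 and 5.56 in cerebellum. The others, Gabra6, Neurod1, Fat2, Cbln1 and Cbln3, averaged only 0.95, 1.11, 1.15, 1.24 and 1.44 in cerebellum. Within cerebellum the Purkinje list read 4.33, 3.86, 3.56, 2.90 and 3.60 on arrays 1 to 5, highest where Gdf10 was lowest and lowest where Gdf10 was highest. Mybpc1 ran otherwise, its highest cerebellum value, 7.95, being on array 1. Markers of other cells were read in the same way. Of the precursors of oligodendrocytes, 2 of 6 genes were higher in SVZ and 1 in hippocampus, where Olig1 averaged 6.27 in SVZ, 5.77 in hippocampus and 1.75 in cerebellum, and Cspg4 2.80, 1.42 and 1.09. Of 7 oligodendrocyte genes 1, Cnp, was lower in each region, with means of 8.15 in SVZ, 7.20 in hippocampus and 10.18 in cerebellum. The list's median difference was 0.11 in SVZ and 0.16 in hippocampus, and Mbp averaged 4.76 in SVZ, 2.55 in hippocampus and 2.39 in cerebellum. Of neuron genes 1 of 8 was lower in SVZ and 0 in hippocampus in limma, where 2 had an unadjusted p under 0.05. Syp and Snap25 averaged 4.24 and 4.06 in SVZ, 4.60 and 3.60 in hippocampus, and 6.40 and 5.72 in cerebellum. Of endothelial and pericyte genes 2 of 9 were higher in SVZ and 1 of 9 in hippocampus, with Slc2a1 and Rgs5 at 9.67 and 6.57 in SVZ, 9.53 and 5.54 in hippocampus, and 7.87 and 4.82 in cerebellum. Ependymal, choroid plexus and red blood cell genes had 0 calls in limma in either region, and at an unadjusted p under 0.05 they had 1, 1 and 0 in SVZ and 1, 0 and 0 in hippocampus, beside 21.1% and 20.1% of all genes. Rarres2 and Dnah11, the brightest ependymal genes, averaged 5.71 and 2.56 in SVZ, 5.77 and 2.93 in hippocampus, and 7.74 and 2.41 in cerebellum. Alas2 and Hba-a1, of red blood cells, stayed below 2 on average in every region. The choroid plexus list averaged 1.80 to 2.88 in SVZ, 2.79 to 8.37 in hippocampus and 2.03 to 7.91 in cerebellum. Its brightest genes, Ttr and Kcne2, averaged 8.40 and 1.03 in SVZ, 12.82 and 4.51 in hippocampus, and 11.89 and 3.76 in cerebellum. The part of these cells in the 8 genes was not tested.

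The genes whose pattern over the 15 arrays was most like each of the 8 were found among 4810 genes with a mean above 3, by the root mean square difference after centring. For Fabp7 these were Timp4 (0.325) and Gpm6b (0.359), and for Ednrb Gpr37l1 (0.303) and Nrcam (0.361). Mybpc1 and Cnpy1 both had Frrs1l nearest (0.586 and 0.528), followed by Aldh1a1 (0.810) and Tubb4a (0.572). Gdf10 had Dao (0.863) and Frrs1l (0.915), Septin4 had Slco4a1 (0.892) and Cacng5 (0.935), and Hopx had Agpat4 (0.848) and Thyn1 (1.17). Npy2r had Hmgcs1 (0.321) and Tlr3 (0.334), both small because Npy2r itself varied little. Distances are not scaled by a gene's own SD over the 15 arrays. That SD was 0.395 for Npy2r, 0.911 for Ednrb, 1.26 for Fabp7 and 3.13 for Gdf10. The cerebellum values that chose the 8 genes also enter these distances. Agpat4, like Hopx, was intermediate in hippocampus, with means of 4.19 in SVZ, 6.83 in hippocampus and 8.79 in cerebellum. The mean of the 8 genes was most like Tubb4a (0.456), Prkg1 (0.552), 0610040J01Rik (0.576), Gabra4 (0.634), Chn1 (0.637) and Npy (0.673). Among the 8, Mybpc1 and Cnpy1 lay closest (0.549), and Gdf10 and Npy2r farthest apart (3.32).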

How the data were processed

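The arrays are Affymetrix mouse expression arrays of pooled, sorted cells, with RNA amplified by the WT-Ovation Pico system, per the labels' protocols. The deposited values were normalized with RMA, per the submitters' processing notes, which give no version of it, and were read as log2. The platform annotation gave 1 symbol to 34958 of 45101 probe sets, several to 932, and did not list 9211. Entrez identifiers brought 34754 symbols up to date, and 204 stayed as annotated. One probe set per gene, the brightest, gave 18193 genes.

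limma 3.58.1 in R 4.3.3 fitted region over all arrays, with Benjamini-Hochberg adjustment over all genes and calls at an adjusted p under 0.05. The fit was tested on simulated data. Figures used matplotlib 3.10.9 in Python 3.11.15. The genes, lists and tests were chosen with earlier results of these data known. Named were the 8 genes, called genes of 3 related lists, the 2 brightest genes of each cell type list, and the nearest genes by distance. Further genes of the astrocyte, Purkinje cell, granule neuron and microglia lists were also named. Promoter motifs were chosen after the values were seen; a longer GLI motif and an octamer motif were searched first, matched no promoter of the 8 genes and were dropped. Of 105 array pairs, 0 held identical values.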

Additional observations from a re-analysis of the deposited data

Results flagged for a closer look

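Within a region of 5 arrays, an array was singled out where its gap to the nearest array exceeded 0.71 of the range (Dixon's 95% value), which chance does in about 1 group in 20. Of 24 groups, 3 met this. Fabp7 read 12.27 on cerebellum 3, the next array being at 12.03. Mybpc1 read 2.94 on SVZ 2, the next array being at 1.18; its further probe sets read 1.32 and 1.17 there. Npy2r read 2.21 on hippocampus 4, the next array being at 1.04.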

How the results depend on the processing

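The differences of the 8 genes from cerebellum helped to choose them, so their calls are not counted over settings. Shifts that alter the fold itself by over 1.5 times stand beside each gene. For Ednrb, below that limit, the difference ran from -1.01 to -0.53 in SVZ and from -1.98 to -1.31 in hippocampus over all settings. Leaving out each array in turn, 0 to 1 of the 8 genes passed between SVZ and hippocampus, the 1 being Hopx without SVZ 1. With the replicate block 0 passed there, and of all genes 812 were lower and 199 higher in SVZ, 693 and 121 in hippocampus, and 1 and 3 between them. Same-numbered arrays share only a number in the labels: their deviations correlated at -0.12 to 0.14, 4 of 15 pairings above 0.1, and 10 of 15, all 5 of SVZ and cerebellum among them, correlated best with their own number. Arrays without any link would do so in about 1 of 5 cases. Whether same-numbered pools were handled together is not given by the labels and was not tested. The settings without cerebellum 4 and 5, and without SVZ 4 and hippocampus 3, were chosen after seeing the data.

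All genes lower in SVZ numbered 364 with quantile normalization, 156 with the spike-in covariate, 297 without cerebellum 4 and 5, and 1435 over every probe set; higher were 409 with array weights, 42 with the covariate and 71 without cerebellum 4 and 5. In hippocampus these counts were 314, 190, 297 and 1257 lower and 244, 36 and 61 higher. Leaving out each array gave 504 to 803 lower and 108 to 217 higher in SVZ, 456 to 934 and 76 to 228 in hippocampus, and 1 to 3 and 0 to 9 between SVZ and hippocampus. Between SVZ and hippocampus 0 were lower and 0 higher without dim genes, with the mean of probe sets, with a trended and robust spread, and with only the groups compared, 0 were higher without SVZ 4 and hippocampus 3, and 1 was higher with the covariate. Of the other Bergmann genes, 4 and 5 were lower in SVZ with the covariate and without cerebellum 4 and 5, and 5 in hippocampus with the covariate. Leaving out arrays gave 9 to 11 and 9 to 14 lower and 0 to 1 higher in SVZ. 0 were higher in SVZ without dim genes, with the covariate, with only the groups compared, without cerebellum 4 and 5, and without SVZ 4 and hippocampus 3, and 1 was higher in hippocampus with quantile normalization and with the mean of probe sets. At the threshold of the series design 1 of the 8 genes, Hopx, was lower in SVZ than in hippocampus. Without SVZ 2, Mybpc1 was -0.10 and Cnpy1 -0.14 between SVZ and hippocampus, the reverse of the sign with all arrays; leaving out each array gave up to 0.49 and 0.27. Fewer samples or genes enter some settings by construction; the cause of the other changes was not tested. Npy2r has no value without dim genes. Precision is limited by having 5 arrays a region, and by background for dim genes.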
